A study of Mus musculus with 4 samples.

Results

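The genes described here are Fscn1, Il12b, Il4i1, Ccl22, Ccl17, Cacnb3, Serpinb6b, Tbc1d4, Stat4 and Net1, 10 of the 32285 genes in the deposited matrices, of which 20925 had a UMI in a cell kept here. They are genes of dendritic cell maturation, and they were picked with earlier results of these same cells in view. They were selected on their high UMI counts in Ccr7-positive dendritic cells, so that level is given as a description, without a test. Their UMIs were counted in 5 gates, each drawn by its own marker: Ccr7-positive Lyz2-low cells, type 1 conventional dendritic cells (cDC1, Xcr1 or Clec9a), plasmacytoid dendritic cells (pDC, Siglech), monocytes and macrophages (Lyz2) and T cells (Cd3e).

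The cells came from subcutaneous YUMMER1.7 melanomas, a mouse tumor line, grown in male wild-type C57BL/6J mice that were 7 to 8 weeks old. Treatment began on day 7, and tumors were taken after 4 doses on day 21 (long cohort) or after 2 doses on day 14 (short cohort). In each cohort the arms compared were isotype IgG1, anti-PD-1 at 10 mg/kg (clone RMP1-14), an antibody to macrophage migration inhibitory factor (anti-MIF) at 20 mg/kg (clone IIID.9), and both antibodies. Both cohorts also held a 5th hashtag, anti-PD1-MIF-DDT, which is missing from the treatment labels. Its 322 (long) and 993 (short) kept cells are not part of the 4 arms. The sorted cells were recombined to 80% CD45+ and 20% CD45- cells, so shares of cells are shares of that mixture and not of the tumor. All arms of a cohort were pooled in 1 library and told apart by hashtag antibodies, so cohort, tumor age, number of doses and library cannot be told apart. Each arm counts as 1 sample. The number of mice behind a hashtag is not given in the sources used here, so the p-values below measure the spread between these sums, which may be technical. The long cohort gave 1671 cells in the 4 arms with a median of 8242 UMIs, and the short cohort gave 3119 cells with a median of 5835 UMIs. There were 20 barcode strings found in both libraries, 14 of them among the kept cells and 2 in the Ccr7 gate of either cohort.

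When a dendritic cell matures it stops sampling its surroundings, presents antigen and switches on CCR7, the receptor for CCL19 and CCL21 that leads it to the lymph node. The genes here cover what such a cell secretes and how it changes shape. Il12b encodes the p40 chain shared by IL-12 and IL-23, cytokines that act on T and NK cells, and Ccl22 and Ccl17 encode chemokines that both bind CCR4 on T cells. Il4i1 encodes a secreted amino acid oxidase. Fscn1 encodes fascin, which bundles actin in the long processes of mature dendritic cells, and Net1 encodes an exchange factor for RhoA. Stat4 encodes a transcription factor activated through the IL-12 receptor, Tbc1d4 a Rab GTPase-activating protein, Cacnb3 a calcium channel beta subunit and Serpinb6b an intracellular protease inhibitor.

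On GRCm38 the genes lie on 8 chromosomes. Ccl22 (chr8:94745590-94751699) and Ccl17 (chr8:94810453-94812036) stand on the same strand with Cx3cl1 between them. Il12b lies at chr11:44400063-44414033 and Fscn1 at chr5:142960343-142973185. Il4i1 (chr7:44816387-44840809) overlaps Nup62 on the same strand, so reads of that pair could be split between them; Nup62 had 23.9 CPM (UMIs of the gene per 1000000 UMIs of the summed cells) in the Ccr7 gate. RefSeq lists 13 promoters for the 10 genes on GRCm38.p6. The windows before the start of 3 of the secreted products are shown because the data below set these genes side by side: Ccl22 and Ccl17 were found together in cells and lie close together, while Il12b went little with Ccl17 across cells. Capitals mark matches to GGGACTT in Ccl22 and to GGGGAATT, which reads AATTCCCC on the printed strand, in Il12b.

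Ccl22, + strand, chr8:94745434-94745589: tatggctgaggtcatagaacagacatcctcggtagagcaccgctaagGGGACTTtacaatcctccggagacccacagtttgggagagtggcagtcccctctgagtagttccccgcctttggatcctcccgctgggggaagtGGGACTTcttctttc

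Ccl17, + strand, chr8:94810203-94810452: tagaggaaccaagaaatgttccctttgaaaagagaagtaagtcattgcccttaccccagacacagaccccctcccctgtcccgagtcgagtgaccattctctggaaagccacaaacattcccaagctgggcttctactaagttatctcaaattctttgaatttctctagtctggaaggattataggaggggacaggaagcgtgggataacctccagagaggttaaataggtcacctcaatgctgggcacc

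Il12b, + strand, chr11:44399813-44400062: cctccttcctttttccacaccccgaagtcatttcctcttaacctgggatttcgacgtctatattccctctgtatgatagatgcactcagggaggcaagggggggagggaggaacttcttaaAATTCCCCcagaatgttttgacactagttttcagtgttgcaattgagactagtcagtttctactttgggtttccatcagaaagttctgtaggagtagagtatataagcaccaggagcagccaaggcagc

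The Ccl22 window stops before the gene start of the annotation. The motifs were chosen after these sequences had been seen, and both strands of the 250 bases before each RefSeq start were searched. GGGACTT matched 1 of the 13 promoters, that of Ccl22, at 203 and 109 bases before the RefSeq start, and 4.65% of all 32851 promoters. GGGGAATT matched 1 of 13, that of Il12b, 129 bases before the start, and 0.734% of all promoters. The NF-κB consensus matched 0 of 13 and 7.25% of all. A match describes letters in a window, and a missing match says nothing of a factor.

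The Ccr7 gate held 119 cells in the long cohort and 75 in the short cohort, which were 7.12% and 2.40% of the cells. Across the arms its share ran from 4.90% (isotype) to 8.53% (anti-MIF, exact 95% interval 6.77% to 10.6%, counting error only) in the long cohort, and from 1.26% (anti-MIF) to 3.89% (isotype) in the short cohort. Of the 9 mature dendritic markers, the 7 that are neither Ccr7 nor Fscn1 were all detected in each of the 8 arms. All 9 summed to 8704 (long) and 8582 CPM (short) in the cDC1 gate, with Ccr7 at 0 by the gate and little Fscn1. The 7 alone summed to 5086 and 5101 CPM in the Ccr7 gate, so these sums do not set that gate apart from cDC1. Flt3 was found in 72.3% and 49.3% of the gate's cells in the long and short cohorts, against 2.7% and 1.9% of the monocyte/macrophage gate, and Zbtb46 in 66.4% and 37.3% against 1.0% and 0.8%. The most abundant of the 7 was H2-Ab1, a class II gene of many antigen-presenting cells, which also had a UMI in 64.2% and 47.7% of the cells of no gate. The 8 macrophage markers summed to 411 and 136 CPM in the gate, with C1qb and Cd14 the most abundant, against 14031 and 10290 CPM in the monocyte/macrophage gate. By arm (isotype, anti-PD-1, anti-MIF, combination) they summed to 35.4, 31.3, 408 and 1051 CPM in the long cohort and to 49.5, 244, 315 and 73.1 CPM in the short cohort.

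Lymphoid RNA in the gate was uneven over the arms. Cells with a UMI of Cd79a, Cd79b, Ms4a1, Trac, Cd3d, Cd3g or Ncr1 made up 13.4% of the gate in the long and 32.0% in the short cohort. In the long cohort these were 0% of isotype, 30.0% of anti-PD-1, 12.0% of anti-MIF and 7.14% of combination cells, and the same 7 genes summed to 0, 482, 48.2 and 6.78 CPM. For the short cohort the shares were 10.3%, 50%, 28.6% and 46.7%, with 138, 564, 67.4 and 646 CPM. By list, the 5 B cell markers were led by Cd79a and summed to 109 CPM in the long and 262 CPM in the short gate, and the 5 NK markers summed to 1.86 and 360 CPM, with Gzma the most abundant and the short anti-PD-1 arm the highest at 1254 CPM. The 7 T cell markers summed to 37.2 and 183 CPM, with Cd3e at 0 by the gate. Each comparison below is therefore also given without these cells where that changed it, an alternative chosen after seeing the data.

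All 10 genes had their highest level in the Ccr7 gate in both cohorts, which is the measure that chose them. The levels here are CPM of the cells of a gate summed over the 4 arms. Fscn1 reached 4477 CPM in the long cohort (exact 95% interval 4351 to 4605, counting error only), and the next gate, monocytes and macrophages, had 6.03 CPM. The short cohort had Fscn1 at 1805 CPM in the Ccr7 gate and 20.5 CPM in cDC1. The heat map of levels by gate shows this contrast for each gene. The lowest of the 8 arms of the Ccr7 gate lay above the highest of the 30 arm sums of the other gates for 7 genes, Fscn1, Il4i1, Ccl22, Cacnb3, Serpinb6b, Tbc1d4 and Stat4, and overlapped them for Il12b, Ccl17 and Net1. Of 8312 genes with at least 200 UMIs, 119 (1.43%) were separated in this way. The genes were chosen for this level, so nothing is read from either count.

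**Figure D1:**
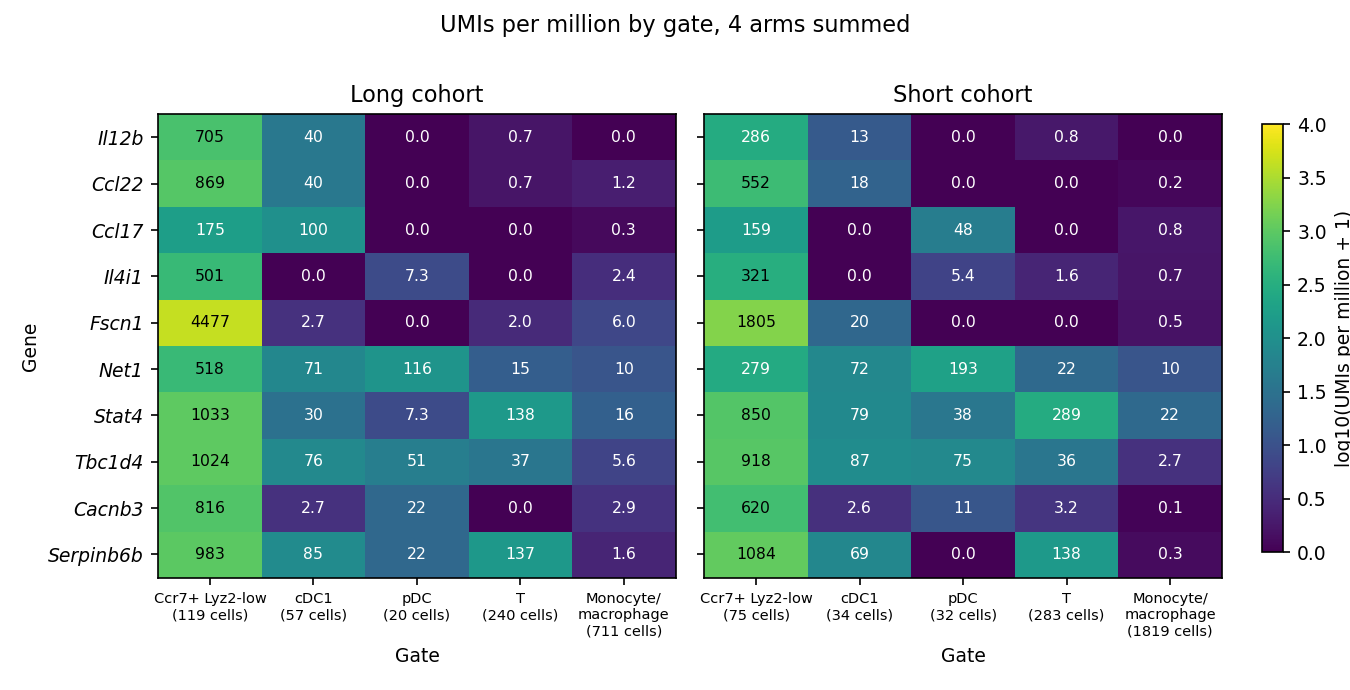
Level of each of the 10 genes (rows) in the 5 gates of the long and short cohorts (columns), as log10 of CPM plus 1 over cells pooled across the 4 arms. The Ccr7 column is the highest in every row of both cohorts; Fscn1 stands at 4477 CPM there in the long cohort, and Net1 and Stat4 keep visible levels in pDC and T cells.

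Among the secreted products, Il12b was at 705 CPM in the Ccr7 gate of the long cohort and 286 CPM in that of the short cohort. The anti-MIF arm gave 689 of the 759 long UMIs, at 1007 CPM, against 23.6 (isotype), 219 (anti-PD-1) and 224 CPM (combination). The short arms ran from 16.8 (anti-PD-1) to 439 CPM (combination). The cDC1 gate followed with 39.6 and 12.8 CPM over the 4 arms, from 2 cells in each cohort, a ratio of 17.8 and 22.3. All 29 long cDC1 UMIs of Il12b were in the anti-MIF arm as well, at 130 CPM. No Il12b UMI was found in 711 and 1819 monocytes and macrophages. A floor of 3 cells with a UMI per gate is 0.422% and 0.165% of them, which is not an upper limit. It also sets no limit on cells that express the gene below detection. Set against a floor of 3 UMIs per gate (0.393 and 0.233 CPM), the pooled Ccr7 gate was 1794-fold and 1223-fold higher. These ratios are not lower bounds, since the exact upper limits for monocytes and macrophages were 0.483 and 0.287 CPM. The long ratio also rests mostly on the anti-MIF arm. The Ccl22 level was 869 and 552 CPM, against 39.6 and 17.9 CPM in cDC1. The anti-MIF arm gave 773 of the 936 long Ccl22 UMIs, at 1129 CPM, against 365 (isotype), 538 (anti-PD-1) and 312 CPM (combination). For Il4i1, the level was 501 and 321 CPM, and the next gate, pDC, rested on 1 UMI in each cohort.

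Ccl17 had the lowest ratio to the next gate among the secreted products, but few cells set it. In the long cohort Ccl17 stood at 175 CPM in the Ccr7 gate, where the anti-MIF arm gave 161 of the 188 UMIs. It stood at 99.7 CPM in cDC1, a ratio of 1.75, and the Ccr7 gate was above cDC1 in 3 of 4 arms. The exception was a single arm: 68 of the 73 cDC1 UMIs were in 3 of the 17 anti-MIF cells, at 305 CPM, and 59 of them in a single cell. In the short cohort cDC1 had 0 Ccl17 UMIs and the next gate was pDC at 48.3 CPM, from 9 UMIs in a single cell. The Ccr7 gate there had 159 CPM, and its isotype arm gave 45 of the 68 UMIs.

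Stat4, Serpinb6b, Net1 and Tbc1d4 had more signal outside the Ccr7 gate. Stat4 was at 1033 and 850 CPM in the Ccr7 gate and at 138 and 289 CPM in T cells, where it serves IL-12 signaling, a ratio of 7.49 in the long and 2.94 in the short cohort. Serpinb6b was at 983 and 1084 CPM, with 137 and 138 CPM in T cells. Net1 was at 518 and 279 CPM, with 116 and 193 CPM in pDC, a ratio of 1.44 in the short cohort, and 2 arm sums of other gates lay above its lowest arm in the Ccr7 gate. Tbc1d4 was at 1024 and 918 CPM, with 76.5 and 86.9 CPM in cDC1. Cacnb3, in contrast, was at 816 and 620 CPM in the gate and at 21.8 and 10.7 CPM in pDC, the next gate. The same highest gate was found for each of the 10 genes under all 9 alternatives, including the one in which every cell was thinned to 2000 UMIs.

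By cell, Fscn1 was detected in 76.5% of the Ccr7 gate of the long cohort and 54.7% of that of the short cohort, against 0.8% and 0.2% of monocytes and macrophages. The median depth was 8578 and 4848 UMIs in the Ccr7 gate, and 10477 and 6721 UMIs in the monocyte/macrophage gate, so the lower shares came from deeper cells. After thinning to 2000 UMIs, which left out 4 and 11 shallower cells of the Ccr7 gate, the Fscn1 shares were 77.4% and 51.6%. Il12b was detected in 36.1% and 20.0% of the gate (27.0% and 15.6% after thinning) and Ccl17 in 25.2% and 21.3% (14.8% and 14.1%). The Il12b shares differed by arm (isotype, anti-PD-1, anti-MIF, combination). Long arms had 20%, 20%, 46.7% and 14.3%, and the anti-MIF arm gave 35 of the 43 cells with Il12b. Short arms had 24.1%, 8.33%, 57.1% and 13.3%, where the anti-MIF arm held 7 cells. For Ccl22 the shares were 71.4% and 52.0% (47.0% and 35.9%). Stat4 was detected in 86.6% and 77.3% of the gate, but also in 50.4% and 56.5% of T cells and 10.7% and 11.3% of monocytes and macrophages.

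A cell of the gate had UMIs of a median of 8 of the 10 genes in the long cohort and 6 in the short cohort. At least 5 of the 10 were found in 97 cells (81.5%) and 42 cells (56.0%), and all 10 in 10 and 2 cells. In contrast, 5 or more were found in 1 of 711 and 0 of 1819 monocytes and macrophages, in 0 of 57 and 1 of 34 cDC1, and in no pDC or T cell. The gate was mixed at its low end: cells with 5 or more genes had a median of 33 and 20 Ccr7 UMIs, and those with fewer had 2 and 1. The cells with fewer than 5 genes were also shallower (4514 and 3470 UMIs at the median, against 9341 and 7194), and their macrophage markers summed to 2811 and 348 CPM, against 29.1 and 31.4 CPM. B cell markers were found in 18.2% and 30.3% of them, against 3.09% and 2.38% of cells with 5 or more. T cell markers were found in 39.4% against 7.14% in the short cohort, but in 13.6% against 12.4% in the long cohort. The part of these markers in the low counts was not tested. The plot of genes per cell shows both ends.

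**Figure D2:**
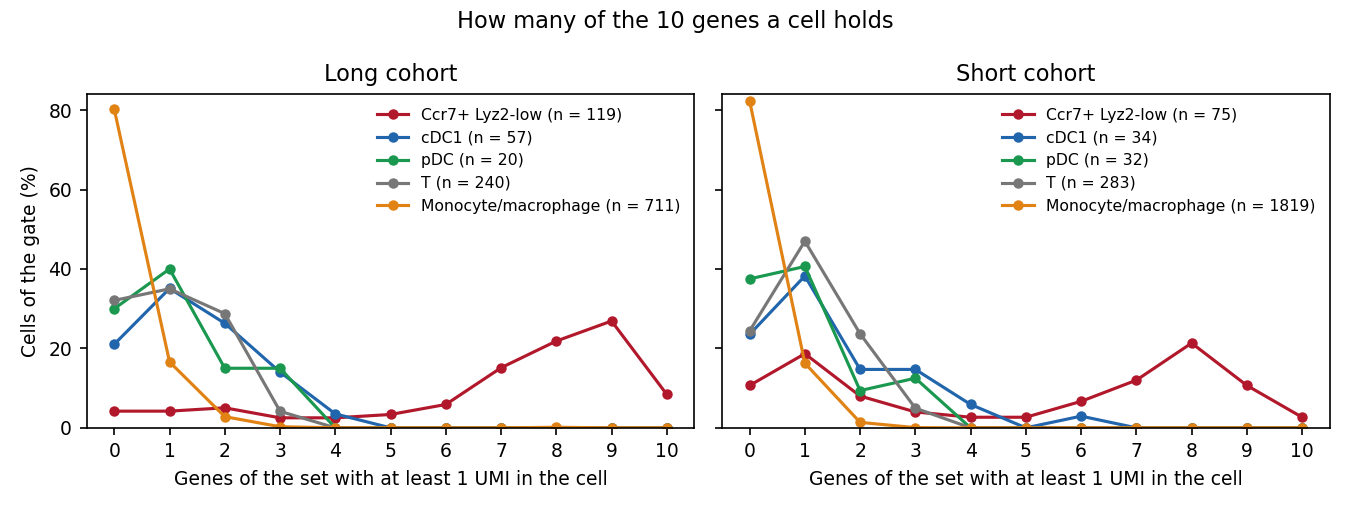
Number of the 10 genes with a UMI in each cell (x axis, 0 to 10) against the percentage of the cells of a gate (y axis), with a line for each of the 5 gates of the long and short cohorts. The Ccr7 gate reaches up to all 10 genes with medians of 8 and 6, while the other gates sit at the low numbers.

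The genes also differed in how their UMIs were spread over the cells of the gate. The tenth of cells with the most UMIs of a gene, 12 cells in the long and 8 in the short cohort, held 75.5% and 91.0% of the Il12b UMIs and 87.8% and 73.5% of the Ccl17 UMIs. For Ccl22 that share was 59.0% and 55.1%, for Fscn1 33.8% and 50.8%, and for Stat4 27.0% and 31.7%. Among cells with Il12b the median was 6 and 4 UMIs and the maximum 143 and 25. Il12b and Ccl17 were thus carried by few cells, and the arms held between 7 and 75 cells of the gate.

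Within the gate, the log-scaled levels of the 10 genes gave 45 pairs, with a median Pearson correlation across cells of 0.39 in the long (119 cells) and 0.43 in the short cohort (75 cells). Cells share a library and differ in depth, so these are descriptions. Fscn1 went with Serpinb6b (0.69 and 0.74) and with Cacnb3 (0.60 and 0.76). Ccl22 and Ccl17 correlated at 0.44 and 0.60, and of the 30 and 16 cells with Ccl17 only 1 and 0 lacked Ccl22. Il12b and Ccl17, in contrast, correlated at 0.10 and 0.03, and the lowest value of the long cohort was between Ccl17 and Stat4 (-0.17).

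The Ccr7 gate held 7.16% of all UMIs in the long and 2.20% in the short cohort. It held between 57.0% and 85.3% of the UMIs of each of the 10 genes in the long cohort, and between 21.7% and 85.0% in the short cohort. It held 85.3% and 85.0% of the Fscn1 UMIs, 83.9% and 83.9% of those of Cacnb3, 83.6% and 78.9% of those of Ccl22 and 80.0% and 78.3% of those of Il4i1. The share was lower for Stat4, at 57.6% and 21.7%, and for Net1, at 57.0% and 25.5%. For the short cohort, cells of no gate held 31.7%, T cells 21.9% and monocytes and macrophages 17.1% of the Stat4 UMIs, and the last of these also held 28.3% of those of Net1. Cells of no gate there also held 39.2% of the Ccl17 UMIs, against 45.9% in the Ccr7 gate, and 38.8% of the Serpinb6b UMIs, against 38.9%. These 58 Ccl17 UMIs lay in 8 of 830 cells, with 27 in a single cell. For Il12b the Ccr7 gate held 72.1% and 41.1%, with large differences between arms. In the long cohort it held 2 of 40 (isotype), 35 of 104 (anti-PD-1), 689 of 775 (anti-MIF) and 33 of 134 (combination) Il12b UMIs. In the short cohort, in the same order, it held 76 of 106, 2 of 142, 8 of 10 and 36 of 39. Cells that met more than 1 gate held 23.9% and 56.6% of the Il12b UMIs.

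**Figure D3:**
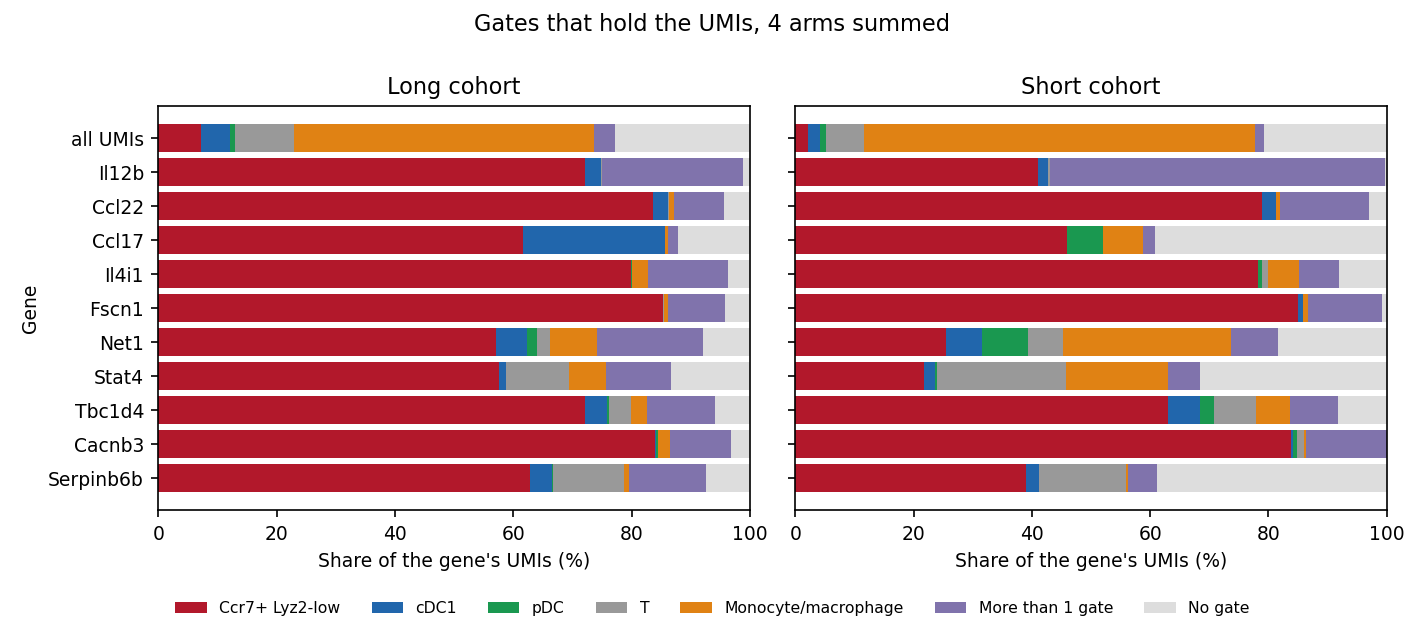
Percentage of the UMIs (x axis) of each gene and of all genes (rows) found in each gate, in cells of more than 1 gate and in cells of no gate (colored segments), for the long and short cohorts. The Ccr7 gate holds 85.3% and 85.0% of the Fscn1 UMIs but 57.6% and 21.7% of those of Stat4, and the cells of more than 1 gate hold 56.6% of the Il12b UMIs of the short cohort.

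Of the 252 and 168 Il12b UMIs of those cells, 243 and 168 lay in cells with Ccr7 and also Xcr1 or Clec9a, the receptors that mark cDC1. There were 12 such cells in the long and 6 in the short cohort, and they were kept out of every gate. Their Il12b level was 1770 and 2759 CPM, with Il12b detected in 11 of 12 and 4 of 6 cells. Per cell the Il12b UMIs ran from 0 over a median of 10 to 101 in the long, and from 0 over 3.5 to 140 in the short cohort, so 1 cell gave most of the short total. By arm (isotype, anti-PD-1, anti-MIF, combination) there were 37, 58, 47 and 101 Il12b UMIs in 2, 3, 6 and 1 cells of the long cohort, and 26, 140, 2 and 0 UMIs in 2, 2, 1 and 1 cells of the short cohort. These cells had Fscn1 at 3344 and 1856 CPM and 5 or more of the 10 genes in 12 of 12 and 5 of 6. Their median depth was 10512 and 9744 UMIs. Doublets that carry a single hashtag were not removed, and their part in these cells was not tested. Cells with both Ccr7 and Cd3e (28 and 23) differed from them: Fscn1 was at 431 and 0 CPM and Cd3g at 1153 and 703 CPM. The 431 CPM came from 83 Fscn1 UMIs in 2 of the 28 cells, with 50 in 1 cell.

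Inside the gate, the 43 and 15 cells with Il12b were set beside the 54 and 27 cells that lacked it but had 5 or more of the 10 genes. Ccl22 was at 1303 against 678 CPM in the long and 924 against 650 CPM in the short cohort. Serpinb6b was at 1312 against 966 and 2044 against 1248 CPM. Irf8, a transcription factor of dendritic cells, was at 1501 against 788 and 1377 against 967 CPM, and Cd70, a costimulatory ligand, at 134 against 25 CPM in the long cohort (19 of 43 against 10 of 54 cells). The short cohort had 12 Cd70 UMIs in 2 of 15 cells, against 4 UMIs in 3 of 27 cells. Other ligands did not share the Cd70 contrast. Cd80 was at 325 against 325 and 347 against 380 CPM, and Cd86 at 456 against 431 and 649 against 616 CPM. Cd274 was lower with Il12b in both cohorts, at 742 against 811 and 809 against 949 CPM. Tnfsf9 was higher in both, at 114 against 78.2 and 44.4 against 40.3 CPM. Of the 9 members other than Il12b, 7 were higher in the cells with Il12b in the long cohort, but only 4 in the short cohort. Tbc1d4 was lower there in both, at 1097 against 1202 and 1297 against 1335 CPM, as was Cacnb3, at 902 against 962 and 871 against 926 CPM. Ccl17 was at 156 against 146 CPM in the long and 107 against 270 CPM in the short cohort. Cd40 was at 355 against 199 CPM in the long cohort and at 311 against 339 CPM in the short cohort. The cells with Il12b were deeper, with medians of 9702 and 7416 against 7979 and 6994 UMIs, and the split is by one of the genes described, so no test was made. The split also pools the arms, and 35 of the 43 long cells with Il12b were in the anti-MIF arm. Over the gate that arm had Ccl22 at 1129 CPM, against 312 to 538 CPM in the other long arms. The part of the arms in these values was not tested. Il12a, the p35 chain that completes IL-12, had 0 UMIs in the cells with Il12b of either cohort.

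Other genes of the same pathways were counted in the same gates. Of all genes with a UMI in the 5 gates, 16.0% were highest in the Ccr7 gate by CPM pooled over both cohorts, and 16.6% of those with at least 200 UMIs. Of 11 IL-12 family and receptor genes, 10 had a UMI and 4 were highest in the Ccr7 gate. Pooled over both cohorts, Jak2, a kinase of the IL-12 receptor, was at 495 CPM in the gate, Ebi3, a chain of IL-27 and IL-35, at 74.5 CPM and Tyk2 at 62.5 CPM, while Il12rb2, a receptor chain, was at 77.8 CPM in the gate and 158 CPM in T cells. Il12a was at 1.3 CPM in the gate and 40.2 CPM in pDC, and Il23a, the partner of p40 in IL-23, was at 0. On the chemokine side Ccr7 was at 3622 CPM and Cx3cl1, the gene between Ccl22 and Ccl17, at 37.9 CPM. Ccr4, the receptor of both chemokines, had 0 UMIs in the gate and 2.9 CPM in T cells. Of 42 other maturation genes, a list chosen with these data known, 40 were highest in the Ccr7 gate, among them Tmem123 (1591 CPM), Cd83 (1307 CPM) and Samsn1 (1128 CPM). The most abundant, the chemokine gene Ccl5, was at 5814 CPM in the gate and 3600 CPM in T cells. Of 11 genes that neighbor or resemble a member, 7 were highest there: Serpinb9 was at 735 CPM, Stat3 at 710 CPM and Tbc1d1 at 179 CPM, and Serpinb6a, a relative of Serpinb6b, was at 13.3 CPM in the gate against 96.1 CPM in T cells.

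The genes whose pattern was most like the mean of the 10 were found by Pearson correlation of log2(CPM + 10) over 38 gate-by-arm sums, among 8302 genes with at least 200 UMIs. They were Nudt17 (0.96), Adcy6 (0.96), Mreg (0.96), Syn3 (0.96), Gm47662 (0.95), Ramp3 (0.95), Gm13546 (0.94), Slc4a8 (0.93), Strip2 (0.93) and Psme2 (0.93). The sums share libraries, and the correlation mostly measures a high level in the Ccr7 gate. Mreg, for example, averaged 416 CPM over the 8 arms of the gate and 1.23 CPM over the other sums. Of the 10 genes themselves, Cacnb3 (0.95) and Fscn1 (0.95) followed the mean of the others most closely, and Ccl17 (0.74) and Net1 (0.68) least.

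The arms were then compared within the Ccr7 gate, which asks whether antibody or cohort moved these genes in the cells that carry them. UMIs were summed per arm, and 2679 genes were fitted with edgeR's quasi-likelihood test on 8 arms with terms for cohort, anti-PD-1 and anti-MIF. All 10 genes passed the filter on low counts. Fewer cells of the responsible kind and less RNA per cell cannot be told apart in the sums alone, since the gate is mixed. The plot of levels by arm shows the values for the 10 genes. The arms below are always in the order isotype, anti-PD-1, anti-MIF and combination.

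**Figure D4:**
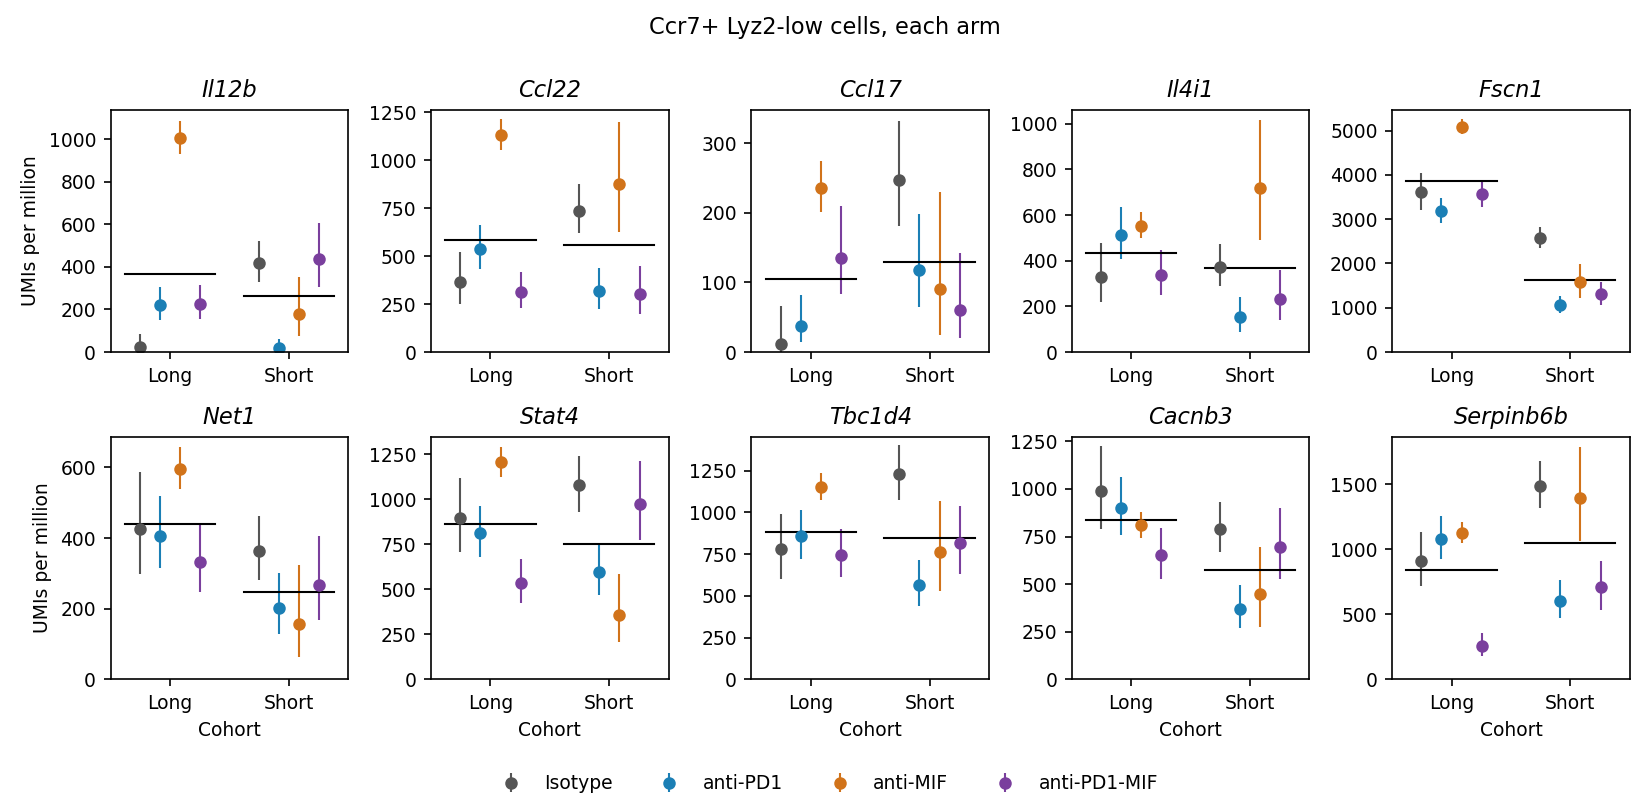
CPM in the Ccr7 gate (y axis from 0, each gene on its own scale) for the 10 genes in the 4 arms of the long and short cohorts; points are arms, bars are exact 95% counting intervals and black lines are the means of the 4 arms. Fscn1 lies at 3190 CPM or more in the long and at 2569 CPM or less in the short cohort, while the arms of the other genes overlap between the cohorts.

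Fscn1 was the one gene of the 10 that changed between cohorts past the adjusted threshold. It stood at 3607, 3190, 5080 and 3573 CPM in the long cohort, a mean of 3863 ± 833 (SD, n = 4 arms). In the short cohort it stood at 2569, 1069, 1573 and 1303 CPM, a mean of 1629 ± 660 (n = 4). Every long arm lay above every short arm, an order whose share over all genes was not counted. The log2 fold change was 1.29 (SE 0.23, Benjamini-Hochberg adjusted p = 0.0373 by edgeR's quasi-likelihood test), with the long arm higher in 4 of 4 matched pairs. In this comparison 0.299% of the genes tested were called, 8 in all, and 11.8% were higher in all 4 pairs, as 2 of the 10 genes were (Fscn1 and Net1). No member was lower in all 4, as 9.97% of all genes were. Among cells with 5 or more of the 10 genes, pooled over arms and given without a test, Fscn1 was at 5560 CPM in those with Il12b and 4831 CPM in those without in the long cohort, against 3314 and 2290 CPM in the short cohort. Lymphoid marker cells were more frequent in the short cohort (32.0% against 13.4% of the gate), as were cells with a single Ccr7 UMI (26.7% against 8.40%). At 2 or more Ccr7 UMIs the log2 fold change was 1.08 with an adjusted p of 0.0764 by edgeR. Without cells that had a lymphoid marker the means were 4019 ± 724 and 2058 ± 427 CPM, the long arms (3432 CPM or more) still lay above the short arms (2663 CPM or less), and the log2 fold change was 1.00 with an adjusted p of 0.139 by the same edgeR test. Leaving out 1 arm at a time kept the log2 fold change between 1.14 and 1.57, but the adjusted p rose above 0.05 in 6 of 8 cases, without each of the arms other than the isotype arms.

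The other shape and signaling genes did not pass. Net1 stood at 424, 407, 596 and 332 CPM in the long cohort (mean 440 ± 112, n = 4 arms) and at 363, 202, 157 and 268 CPM in the short cohort (248 ± 89.4). The groups overlapped only at the short isotype arm, and the log2 fold change was 0.79 (SE 0.29, adjusted p = 0.288 by edgeR), with 4 of 4 pairs higher. Cacnb3 ran from 651 to 990 CPM in the long and from 370 to 792 CPM in the short cohort, with a log2 fold change of 0.53 (SE 0.26). Tbc1d4 (746 to 1154 against 564 to 1232 CPM), Stat4 (536 to 1208 against 360 to 1078 CPM) and Serpinb6b (258 to 1125 against 606 to 1491 CPM) overlapped widely.

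The secreted products did not pass between cohorts either, and their arms overlapped. Il12b averaged 368 ± 436 CPM in the long and 263 ± 202 CPM in the short cohort, with a log2 fold change of 0.22 (SE 0.64). Ccl22 averaged 586 ± 375 and 559 ± 291 CPM (log2 fold change 0.18, SE 0.33), and Ccl17 105 ± 102 and 129 ± 82.4 CPM (-0.49, SE 0.61). Il4i1 averaged 434 ± 116 and 369 ± 251 CPM (0.46, SE 0.34). The SD was close to or above the mean for Il12b and Ccl17 in the long cohort. Over the 10 genes the median log2 fold change was 0.20, against -0.01 over all genes tested. Of the 10, 8 were above 0, as 48.9% of all genes were. Without the lymphoid marker cells the median was 0.02 and 5 of 10 were above 0.

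Anti-MIF changed none of the 10 genes past the adjusted threshold, nor any other gene tested (percent called 0). At an unadjusted p under 0.05 edgeR listed 68 genes (2.54%), of which Il12b was the one member, and DESeq2 called 1 gene in all. Il12b stood at 23.6, 219, 1007 and 224 CPM in the long cohort, from 2, 35, 689 and 33 UMIs. In the short cohort it stood at 418, 16.8, 180 and 438 CPM, from 76, 2, 8 and 36 UMIs. The anti-MIF arm was the highest of the long cohort, but in the short cohort anti-MIF alone lay under isotype, and the groups overlapped. The log2 fold change was 1.40 (SE 0.64, adjusted p = 0.9992 by edgeR), with 3 of 4 pairs higher. None of the 10 genes was higher or lower in all 4 pairs, as 4.93% and 5.75% of all genes were. The Il12b value ranged from 0.04 to 2.75 over the 21 alternatives, was 0.60 without the long anti-MIF arm, and was 0.04 when the cells of more than 1 gate, among them those with Ccr7 and a cDC1 receptor, were counted in. As few as 2 cells carried the Il12b UMIs of an arm. The long arms with anti-MIF also had the highest macrophage marker sums of that cohort (408 and 1051 against 35.4 and 31.3 CPM), and the part of these markers in the anti-MIF values of Il12b and Ccl17 was not tested.

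For Ccl17 the arms with and without anti-MIF stood in opposite order in the cohorts, while anti-MIF alone lay above the combination in both. In the long cohort it stood at 11.8, 37.5, 235 and 136 CPM, from 1, 6, 161 and 20 UMIs, and in the short cohort at 248, 118, 89.9 and 60.9 CPM, from 45, 14, 4 and 5 UMIs. Both long arms with anti-MIF lay above both without it, and both short arms with anti-MIF lay below. The difference between the cohorts' anti-MIF effects was 3.97 on the log2 scale (SE 0.85, unadjusted p = 0.000359, adjusted p = 0.454 over all genes by edgeR), so it did not pass. Of all genes tested 94 had an unadjusted p under 0.05 for this difference and 0 passed the adjusted threshold. Over both cohorts the anti-MIF log2 fold change of Ccl17 was 0.65 (SE 0.61). The other 8 genes had anti-MIF log2 fold changes between -0.38 (Serpinb6b) and 0.34 (Il4i1). The median of the 10 was 0.07, against 0.02 over all genes tested, with 6 of 10 above 0, as 53.2% of all genes were. Without the lymphoid marker cells the median was 0.03 and 8 of 10 were above 0.

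For anti-PD-1 no member passed the adjusted threshold. All 10 had log2 fold changes below 0, while 52.8% of all genes tested lay above 0. The 10 come from the same sums of a mixed gate, so they are not 10 separate results. The test called 1 gene, 0.0373% of those tested: Hsph1, a heat shock protein gene, with a log2 fold change of 3.05 (SE 0.46, adjusted p = 0.0280 by edgeR). Hsph1 missed the threshold at 2 or more Ccr7 UMIs (adjusted p = 0.0525 by edgeR), with cells of more than 1 gate (0.316) and at the stricter hashtag quantile (0.0584). Among the fits with 1 arm left out, it missed without the long anti-MIF arm (0.189) and without the long combination arm (0.125). At an unadjusted p under 0.05 there were 3 of the 10 genes, against 8.62% of all genes. Ccl22 stood at 365, 538, 1129 and 312 CPM in the long and at 737, 320, 876 and 305 CPM in the short cohort. Its arms with anti-PD-1 were lower in 3 of 4 pairs, the exception being the long isotype pair, and the log2 fold change was -0.98 (SE 0.33, adjusted p = 0.426 by edgeR). Serpinb6b had a log2 fold change of -0.86 (SE 0.32, adjusted p = 0.467 by edgeR), again lower in 3 of 4 pairs. Fscn1 was at -0.52 (SE 0.23, adjusted p = 0.574 by edgeR), lower in 4 of 4 pairs, as 6.23% of all genes were. No member was higher in all 4, as 9.37% of all genes were. For Il12b and Ccl17 the values were -0.97 (SE 0.63) and -0.82 (SE 0.56). Over the 10 genes the median was -0.55, against 0.04 over all genes tested.

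The arms with anti-PD-1 had the highest shares of lymphoid marker cells in the short cohort, 50% and 46.7% against 10.3% and 28.6%, and in the long cohort 30.0% and 7.14% against 0% and 12.0%. Without these cells the anti-PD-1 log2 fold change of Ccl22 was -0.74, of Serpinb6b -0.63 and of Fscn1 -0.26, and no member had an unadjusted p under 0.05. The median of the 10 was then -0.40, with all 10 below 0. Cells with a single Ccr7 UMI were also more frequent with anti-PD-1 in 4 of 4 pairs (0 to 10% and 6.67% to 21.4% of the gate in the long, 13.8% to 37.5% and 28.6% to 33.3% in the short cohort). At 2 or more Ccr7 UMIs the median was -0.34, with 9 of 10 below 0. The anti-PD-1 and anti-MIF effects come from one fit on the same 8 arms, so they are not independent of each other. The plot of fold changes sets the 3 comparisons side by side.

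**Figure D5:**
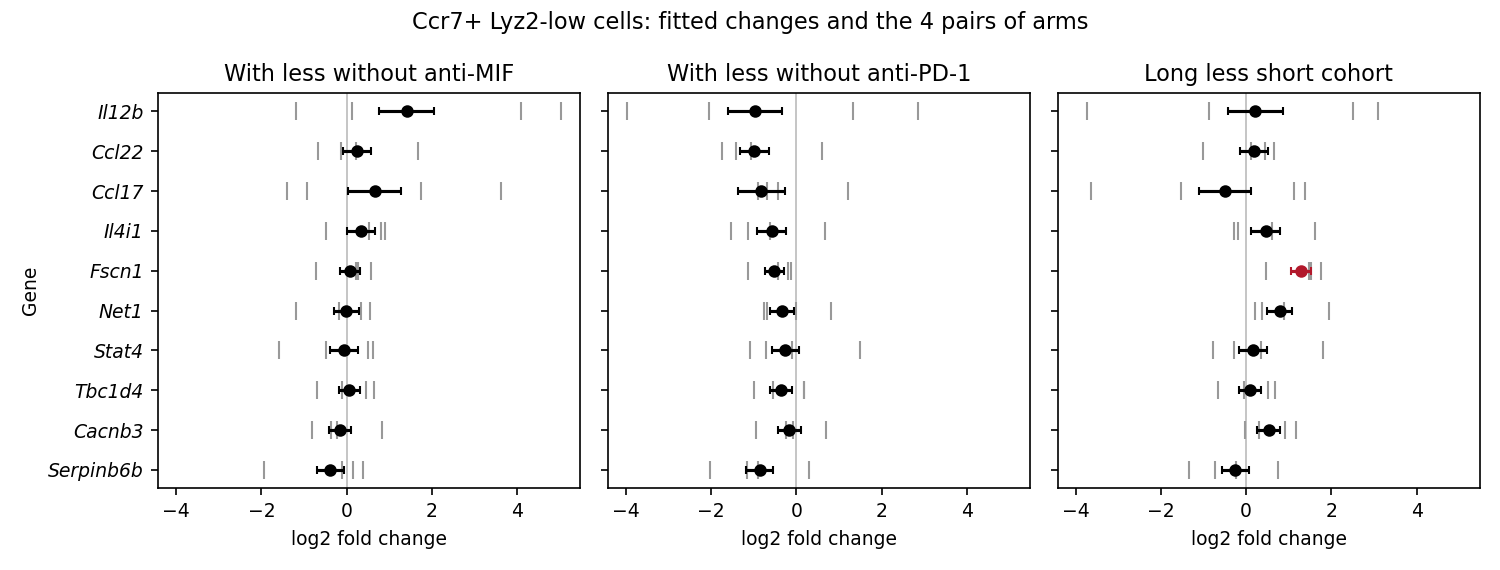
Log2 fold change of each of the 10 genes in the Ccr7 gate (x axis) for anti-MIF, anti-PD-1 and the long against the short cohort; points with bars are edgeR's estimates with 1 SE, and gray ticks are the 4 pairs of arms. Fscn1 at 1.29 between cohorts is the red point past the adjusted threshold, and all 10 genes lie below 0 for anti-PD-1.

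Few of the listed pathway genes passed in the same fits. Of the IL-12 family and receptor genes 4 of 11 were tested, and 0 passed in any comparison. Of the chemokine and receptor list Ccr7, which also draws the gate, was tested, with log2 fold changes of -0.47 for anti-PD-1 and 0.55 for the long against the short cohort, neither past the threshold. Of the 42 other maturation genes 38 were tested. In the long against the short cohort 27 of the 38 (48.9% of all genes) were higher and 11 lower, with a median of 0.29 against -0.01 over all genes, and 10 of 38 had an unadjusted p under 0.05, as 13.3% of all genes did. By the adjusted p 1 passed: Eno3, which encodes the muscle form of enolase, rose by 2.16 on the log2 scale (SE 0.38, adjusted p = 0.0331 by edgeR). Without lymphoid marker cells it was 1.93 with an adjusted p of 0.139, and at 2 or more Ccr7 UMIs 2.04 with 0.0882. For anti-PD-1, 11 of the 38 (52.8% of all genes) were higher and 27 lower, with a median of -0.15, and 0 passed. For anti-MIF the median was 0.00 and 0 passed. Of the genes that neighbor or resemble a member 5 were tested and 0 passed.

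Beside Fscn1 and Eno3, the cohort comparison called Cdk8 (log2 fold change 1.29), Actg1 (1.13), a cytoplasmic actin gene, and Hspb1, a heat shock protein gene with 0, 80, 8 and 19 UMIs in the long arms and 0 in every short arm, as higher in the long cohort. The anti-PD1-MIF-DDT hashtag, which is missing from the treatment labels and entered no comparison, went the other way for Hspb1, with 0 UMIs in the long and 37 in the short cohort. Lower in the long cohort were Ly6c2 (-3.67), Bach2 (-2.25), a transcription factor of lymphocytes, and Arhgap15 (-2.08). Ly6c2 had 1, 1, 20 and 1 UMIs in the long arms and 16, 15, 1 and 69 UMIs in the short arms. It was lower in 3 of 4 pairs. With a term for each pair of arms it was at -3.41 and missed the threshold (adjusted p = 0.121 by edgeR). Most of these calls depended on the cells counted. Of the 8 called genes Cdk8 and Hspb1 passed without lymphoid marker cells, where Ly6c2, Bach2 and Arhgap15 were too low to be tested. At 2 or more Ccr7 UMIs Cdk8, Hspb1 and Actg1 passed, at a Lyz2 limit of 5 Cdk8 and Hspb1, and with the anti-PD1-MIF-DDT hashtag counted as combination arms Fscn1 and Actg1. Bach2 and Arhgap15 were lower in 4 of 4 pairs, beside the higher share of lymphoid marker cells in the short cohort, whose part in these values was not tested.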

How the data were processed

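The 2 pooled 10x 5′ libraries of the long and short cohorts were used, each with its hashtag library. The deposited values are whole-number UMI counts per gene or hashtag and barcode, made by the authors with Cell Ranger (7.1.0 in the submitters' processing notes, which also name Seurat 5.1.0, R 4.3.2, DESeq2 and mm10) and not normalized. The filtered matrices held 2516 (long) and 4987 (short) barcodes with 23702910 and 31799441 UMIs.

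Barcodes were assigned with HTODemux (Seurat 5.3.0, R 4.3.3) at a quantile of 0.99, and 425 and 626 doublets and 24 and 176 negatives were left out, as were 322 and 993 kept cells of a 5th hashtag (anti-PD1-MIF-DDT) missing from the treatment labels. Doublets of 1 hashtag and free RNA were not removed. Cells had 200 to 5000 genes and at most 5% mitochondrial UMIs. A cell with 10 or more Lyz2 UMIs per 10000 was a monocyte/macrophage; other cells entered a gate at 1 UMI of its marker, and cells meeting more than 1 gate were counted apart. UMI counts were summed per gate and arm (CPM: per 1000000 UMIs of that sum; exact Poisson or binomial intervals at 95%; floor of 3 UMIs or cells per gate). The Ccr7 sums of 8 arms, from 44504 to 684430 UMIs each, were fitted with edgeR 4.0.16 (filterByExpr, TMM, quasi-likelihood, additive terms for cohort, anti-PD-1 and anti-MIF, Benjamini-Hochberg at 0.05). The code was tested on simulated data. Alternatives were DESeq2 1.42.0, other filters, gates and demultiplexing, a term for each pair of arms, and each arm left out.

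The 10 genes, lists, gates and tests were chosen with earlier results of these data known. Named were the 10 genes, up to 4 genes per list with the most UMIs in the gate, the 10 most alike, and per comparison the 10 largest changes among genes past the threshold and in the same direction in 4 of 4 pairs; Hspb1, Ly6c2 and other genes beyond this were chosen after their values were seen. Ccl19 and Ccl21a each have more than 1 row in the files and were left out, and 1 further listed gene is not reported here. Positions are from GENCODE vM21 on GRCm38 and promoters from RefSeq on GRCm38.p6. Reads of overlapping genes may be split.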

Additional observations from a re-analysis of the deposited data

Results flagged for a closer look

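The anti-MIF effect on Ccl17 in the Ccr7 gate differed between the cohorts by 3.97 on the log2 scale (unadjusted p = 0.000359, adjusted p = 0.454 by edgeR's quasi-likelihood test over 2679 genes). The long pairs of arms gave 3.62 and 1.74, the short pairs -1.39 and -0.93, and the short arms with anti-MIF held 4 and 5 Ccl17 UMIs.

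The anti-PD1-MIF-DDT hashtag, which enters no comparison, had 5 cells in the Ccr7 gate of the long cohort. Il12b stood there at 386 CPM, above the 23.6 CPM of the isotype arm, and Ccl22 at 772 CPM, above the 365 CPM of the isotype arm, where the Il12b value came from 2 UMIs and lay under the floor of 35.4 CPM that 3 UMIs set. In the short cohort the same hashtag, with 13 cells in the gate, lay below isotype for both genes, at 238 against 418 CPM for Il12b and 264 against 737 CPM for Ccl22. With so few cells and no label for the treatment, these are given as values. Of 20 groups of 4 arms (10 genes in 2 cohorts), 0 had an arm marked as far from the others by Dixon's test. With 4 values this test marks only an extreme gap, so it does not show that no arm dominates. It did not mark Il12b in the long cohort, where anti-MIF stood at 1007 CPM and the next arm, combination, at 224 CPM.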

How the results depend on the processing

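Each of the 10 genes was highest in the Ccr7 gate under all 9 alternatives (10 of 10 each), and 90 of 90 levels stayed within 1 SD over arms. Counts of genes past the adjusted threshold depended on the processing. Anti-MIF, at 0, gave 1 with DESeq2, 13 with no filter on low counts, 2 with cells of more than 1 gate included and 0 to 4 with 1 arm left out. Anti-PD-1, at 1, gave 2 with DESeq2, 41 with no filter, 5 at a Lyz2 limit of 5, 0 at 2 or more Ccr7 UMIs, 0 with cells of more than 1 gate, 0 at the stricter hashtag quantile, 3 with MULTIseqDemux, 2 without lymphoid marker cells, 2 with the 5th hashtag and 0 to 4 with 1 arm left out. The long against the short cohort, at 8, gave 23, 46, 2 (Lyz2 limit of 5), 3 (2 or more Ccr7 UMIs), 21 (more than 1 gate), 3 (lymphoid marker cells left out), 2 (5th hashtag) and 0 to 9. The cause of these moves was not tested. The Fscn1 difference between cohorts kept its direction under all 21 alternatives. Its adjusted p rose above 0.05 with each of 6 of the 8 arms left out in turn, those other than the isotype arms (range over all 8: log2 fold change 1.14 to 1.57, adjusted p 0.0302 to 0.172) and under 4 of 13 other alternatives: 1.25 at a Lyz2 limit of 5 (adjusted p = 0.0527), 1.08 at 2 or more Ccr7 UMIs (0.0764), 1.28 with cells of more than 1 gate (0.0704) and 1.00 without lymphoid marker cells (0.139). With DESeq2 it was 8.09e-05.

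Of 630 fold changes of the 10 genes under alternatives, 54 turned, none of them past the threshold. For anti-MIF these were Fscn1 with the 5th hashtag (-0.011), Ccl22 with cells of more than 1 gate (-0.036), Stat4 at 2 or more Ccr7 UMIs (0.080), without lymphoid marker cells (0.011) and with the 5th hashtag (0.12), and Net1 at a Lyz2 limit of 5 (0.027), at 2 or more Ccr7 UMIs (0.12), with cells of more than 1 gate (0.057) and without lymphoid marker cells (0.020). For anti-PD-1 they were Il12b with cells of more than 1 gate (0.16) and Cacnb3 at 2 or more Ccr7 UMIs (0.046), and between cohorts Ccl22 (-0.046 and -0.017) and Tbc1d4 (-0.14 and -0.26) at 2 or more Ccr7 UMIs and without lymphoid marker cells, and Stat4 without the latter (-0.0091). With 1 arm left out, anti-MIF values ran from -0.10 to 0.33 (Fscn1), -0.17 to 0.62 (Ccl22), -0.035 to 1.29 (Ccl17), -0.41 to 0.0071 (Cacnb3), -0.59 to 0.070 (Serpinb6b), -0.10 to 0.30 (Tbc1d4), -0.46 to 0.22 (Stat4) and -0.30 to 0.18 (Net1). Anti-PD-1 values ran from -1.69 to 0.22 (Il12b), -0.41 to 0.015 (Cacnb3) and -0.58 to 0.10 (Stat4), and cohort values from -0.66 to 1.46 (Il12b), -0.20 to 0.52 (Ccl22), -1.04 to 0.16 (Ccl17), -0.75 to 0.00066 (Serpinb6b), -0.053 to 0.36 (Tbc1d4) and -0.16 to 0.52 (Stat4). A paired fit, added after seeing the data, with 1 term for each of the 4 pairs of arms that differ only in the factor compared (3 residual degrees of freedom, against 4), gave 0 genes for anti-MIF, 3 for anti-PD-1 and 8 between cohorts. Ly6c2 was not among these 8 (log2 fold change -3.41, adjusted p = 0.121 by edgeR). Fscn1 was then at 1.31 (adjusted p = 0.0475), and no call of the 10 genes changed. Depth limits the short anti-MIF arm most, with 7 cells and 44504 UMIs.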

Other observations

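The anti-PD1-MIF-DDT hashtag had 5 of 322 kept cells (1.55%) in the Ccr7 gate of the long and 13 of 993 (1.31%) in that of the short cohort. Fscn1 stood at 2662 CPM in the long and 1216 CPM in the short cohort, the same order as in the other arms. Il12b was at 386 and 238 CPM and Ccl22 at 772 and 264 CPM, and Ccl17 had 0 UMIs in both.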
